A study of Homo sapiens with 24 samples.

Results

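PMAIP1, TP53INP1 and TIGAR are 3 genes that p53 can switch on, and their mRNAs were followed here in OVCAR-3, an established human cell line from a high-grade serous ovarian cancer that resists platinum. They were taken by symbol from the table of the array platform, which gave 1 probeset for each, so that the 3 genes stand among 14884 named genes. A total of 7442 genes reached the filter on mean signal (at least 6.54 on the log2 scale, the median of the named genes) and were tested, and the 3 genes were among them. PMAIP1 was chosen by its measured signal in polysome RNA of cells given both drugs against DMSO, which had been seen before. Which values led to TP53INP1 and TIGAR is not recorded. The contrasts that set INK128 or the combination against DMSO in polysome RNA, and the combination against carboplatin, are therefore described for the 3 genes with no test.

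The study hybridised 24 Affymetrix arrays of the type Human Gene 2.0 ST, and the values are log2 signals. Cells received the vehicle DMSO, 1 µM carboplatin (a platinum drug that crosslinks DNA) for 5 h, 0.25 µM INK128 (an inhibitor of the kinase mTOR in both of its complexes, mTORC1 and mTORC2), or INK128 for 19 h before carboplatin was added for the last 5 h of 24 h (the combination). From the same lysates the study took total RNA and the RNA of heavy polysomes, the gradient fractions that hold mRNAs carrying many ribosomes. All groups were 1 cell line at 1 harvest time, and the study describes 2 complete sets done independently, while the labels do not say which arrays came from separate cultures, so that p-values measure only the spread between these arrays.

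For 4 arrays the label and the study's own supplementary datasets gave different conditions. The values of 527 or 676 probesets identified the dataset column of 16 arrays, equal within 1e-04 at every one of these probesets. Carboplatin polysome array 1 and carboplatin total array 1, as labelled, match columns named for combination total RNA, combination total 1 matches a column named for carboplatin polysome RNA, and combination total 2 one named for carboplatin total RNA. These 4 arrays were left out, which left 20: polysome RNA of 3 DMSO, 4 carboplatin, 3 INK128 and 3 combination arrays, and total RNA of 2 DMSO, 3 carboplatin and 2 INK128 arrays. Of the carboplatin arrays in use, 2 polysome arrays and 1 total RNA array carry a 3-digit code in the label whose meaning is not given, and they are called coded below. Array medians were between 4.97 and 5.13, and the small number of arrays limits the precision. The 13 named markers of ovarian epithelium had means from 4.96 (ESR1) to 12.2 (PAX8), with EPCAM at 10.6, while CLDN4 (6.68), KRT8 (6.96) and FOLR1 (7.15) lay near the middle of the named genes. Of 12 tested epithelial markers 1 (MSLN) rose in polysome RNA with INK128, by 0.93 (limma adjusted p = 0.0162), against 4.6% of all tested genes, which is about the same share. EPCAM was at 0.50 there and passed with the replicate number as a block (adjusted p = 0.0497, without it 0.0516). In the same contrast 2 of the 12 were below 0, with a median of 0.155 against -0.02 over all genes. In total RNA with INK128 the median was 0.29 against -0.04. With the combination in polysome RNA MSLN (0.71, limma adjusted p = 0.0371) and KRT18 (0.56, adjusted p = 0.0469) rose, against 4.56% of all genes. With 1 array left out at a time they passed in 7 and in 1 of 13 runs. The part of these markers in the results below was not tested. The 5 markers of leukocytes, endothelium and fibroblasts had means from 2.78 (DCN) to 5.50 (VWF).

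p53 is a transcription factor that is stabilized by DNA damage and other stress and then drives genes for arrest, repair, metabolism and death. PMAIP1 encodes NOXA, a BH3-only protein that binds MCL1 and so favours apoptosis. TP53INP1 encodes a stress protein that works with p53 in the nucleus and with LC3-family proteins in autophagy, and TIGAR encodes a phosphatase that lowers fructose-2,6-bisphosphate, slows glycolysis and favours the pentose phosphate pathway. PMAIP1 and TIGAR can also be driven without p53, for PMAIP1 among others by the stress factor ATF4, a member of the ATF and CREB family.

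The 250 bases upstream of the annotated start are shown for PMAIP1 and TIGAR, the pair whose INK128 arrays all lay below the DMSO arrays in both RNA fractions. No window was searched for TP53INP1, so the matches cannot be set against a gene without this pattern. They are RefSeq sequences of build GRCh38.p14 on the plus strand, at chr18:59899746-59899995 for PMAIP1 and chr12:4320963-4321212 for TIGAR. Capitals mark TGACGT or its reverse complement ACGTCA, the core of sites bound by the ATF and CREB family, searched on both strands.
PMAIP1: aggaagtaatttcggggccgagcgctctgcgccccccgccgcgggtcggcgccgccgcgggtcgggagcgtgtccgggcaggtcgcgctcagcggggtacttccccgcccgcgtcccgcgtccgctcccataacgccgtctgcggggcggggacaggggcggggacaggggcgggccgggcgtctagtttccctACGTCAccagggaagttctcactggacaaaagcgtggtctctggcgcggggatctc
TIGAR: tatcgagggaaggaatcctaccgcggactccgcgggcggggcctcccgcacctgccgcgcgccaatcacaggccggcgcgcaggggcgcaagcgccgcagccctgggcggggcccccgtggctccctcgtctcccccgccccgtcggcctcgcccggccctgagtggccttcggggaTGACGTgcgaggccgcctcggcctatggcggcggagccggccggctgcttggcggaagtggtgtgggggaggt
Each window held 1 such match, 56 bases before the start in PMAIP1 and 73 bases before it in TIGAR. The same letters were in 2026 of 27305 upstream windows of this length (7.4%), and GC content was 72.8% in PMAIP1 and 76.8% in TIGAR. The consensus of the p53 half-site, a palindrome, had 0 matches in either window and at least 1 in 5.5% of all windows. These shares are over all windows and are not matched for GC content. A match in letters does not show that a factor binds there, and a window without one says nothing about the factor.

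**Figure D1:**
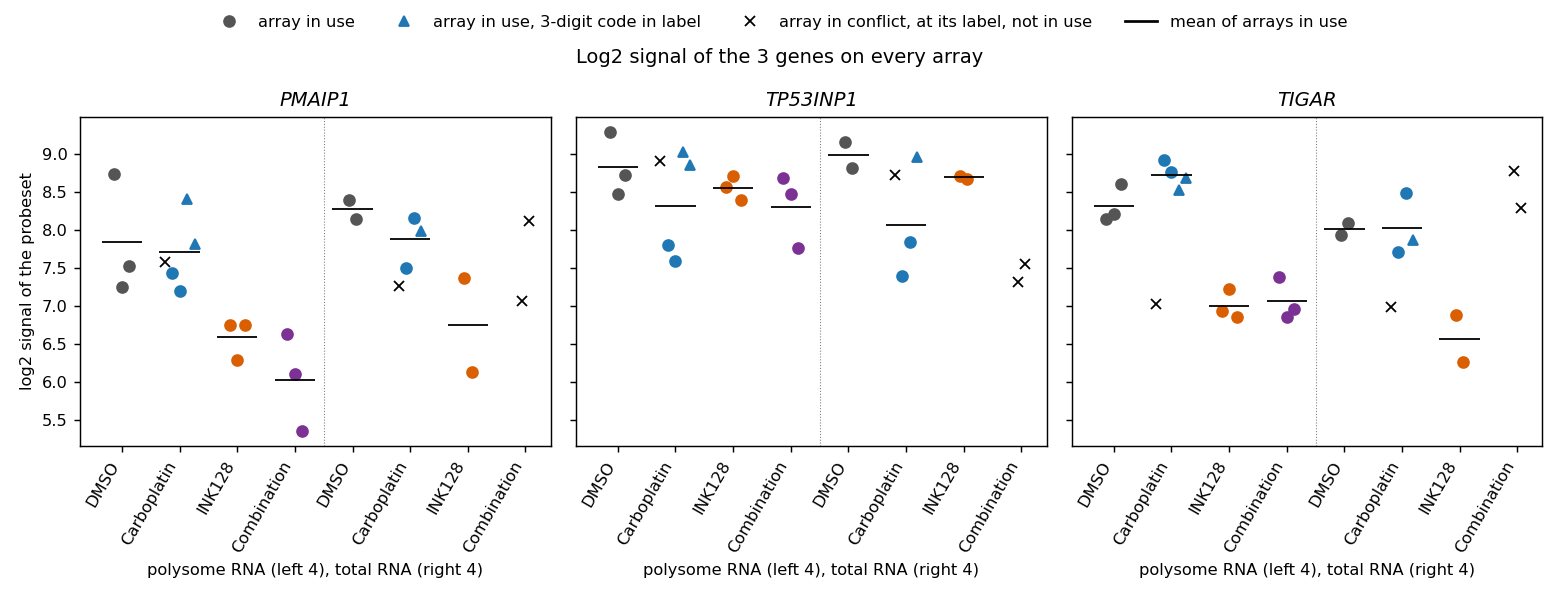
Log2 signal of PMAIP1, TP53INP1 and TIGAR (vertical axis) on each array, by treatment in polysome RNA (left 4 positions) and total RNA (right 4). Circles are arrays in use, triangles coded carboplatin arrays, crosses the 4 arrays in conflict at their labelled position, and lines the means of the arrays in use. The INK128 arrays lie below every DMSO array for PMAIP1 and TIGAR in both fractions.

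INK128 was given alone to ask what mTOR inhibition does by itself. In polysome RNA, PMAIP1 and TIGAR were lower with INK128 than with DMSO, by 2.37-fold and 2.49-fold, while TP53INP1 differed by 1.21-fold. PMAIP1 had log2 signals of 8.73, 7.26 and 7.53 on the DMSO arrays and of 6.74, 6.29 and 6.75 on the INK128 arrays. The DMSO arrays were spread widely, with the first far above the others, yet the lowest of them was above every INK128 array. The log2 difference was -1.24 (standard error 0.391), and without DMSO polysome array 1 it was -0.80. TIGAR had 8.15, 8.21 and 8.61 with DMSO and 6.93, 7.23 and 6.86 with INK128. Both groups were tight and did not overlap, and the difference was -1.32 (standard error 0.174). Of all tested genes, 17.6% had INK128 arrays all below the DMSO arrays, and 8.18% passed an adjusted p of 0.05 in either direction, so an order of this kind was common in this contrast. Among 7442 genes TIGAR had the 8th and PMAIP1 the 11th most negative difference.

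TP53INP1 did not share this pattern. Its polysome signals were 9.29, 8.48 and 8.72 with DMSO and 8.57, 8.72 and 8.40 with INK128. The groups overlapped, and the difference of -0.27 (standard error 0.353) was smaller than its standard error. That standard error uses the spread of all 4 polysome groups together. The SD of TP53INP1 was 0.418 with DMSO and 0.160 with INK128, but 0.482 with the combination and 0.726 with carboplatin.

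In total RNA the change with INK128 was tested. These are other arrays than those by which PMAIP1 was chosen, but from the same lysates, and since the values behind TP53INP1 and TIGAR are not recorded, the test is not shown to be independent of the choice for any of the 3 genes. PMAIP1 had log2 signals of 8.40 and 8.15 with DMSO against 7.37 and 6.13 with INK128. TIGAR had 7.94 and 8.09 with DMSO against 6.88 and 6.26 with INK128. For both genes each INK128 array was below each DMSO array, and the 2 INK128 arrays lay farther apart than the 2 DMSO arrays. PMAIP1 was 2.87-fold lower, a log2 difference of -1.52 (standard error 0.362, 95% interval -2.33 to -0.72), and did not pass the threshold, with an adjusted p of 0.105 from limma (unadjusted p = 0.00177). TIGAR was 2.72-fold lower, with -1.44 (standard error 0.287, interval -2.08 to -0.80, adjusted p = 0.0768, unadjusted p = 0.000501). These were the 6th (PMAIP1) and 8th (TIGAR) most negative differences of 7442, in a contrast in which limma called 12 genes, 0.161% of those tested, 1166 had an unadjusted p under 0.05 and 29.3% had both INK128 arrays below both DMSO arrays.

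Both intervals lay below 0, but the sizes rested on few arrays. Without INK128 total array 2 the difference of PMAIP1 was -0.90, and without INK128 total array 1 it was -2.15. When the 4 conflicting arrays were used under the conditions of the datasets, which adds arrays to the estimate of the spread and leaves these differences as they were, the adjusted p was 0.0391 for PMAIP1 and 0.0207 for TIGAR, and 209 genes passed.

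TP53INP1 in total RNA had 9.16 and 8.82 with DMSO and 8.71 and 8.67 with INK128. The arrays did not overlap, but the difference was small, -0.30 (standard error 0.403, interval -1.20 to 0.60, limma adjusted p = 0.763). The standard error and interval share the spread with the carboplatin total arrays, whose SD was 0.807 against 0.238 with DMSO and 0.0317 with INK128. They thus do not measure the spread of the 2 compared groups alone.

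Translation efficiency, the polysome signal minus the total signal on the log2 scale, was compared to ask whether the mRNAs moved between fractions with INK128. The change against DMSO was 0.28 for PMAIP1 (95% interval -1.01 to 1.57), 0.13 for TIGAR (-0.57 to 0.82) and 0.03 for TP53INP1 (-1.22 to 1.28). None passed the threshold, with an adjusted p of 0.999 from limma for each, nor did any other tested gene, while 94 had an unadjusted p under 0.05. The intervals were wide, most of all for PMAIP1. The fit held no term for the lysate that both fractions share, and replicate numbers are not shown to pair them. Column names of the study's datasets do number some polysome and total arrays alike. They put DMSO total array 1 with DMSO polysome array 1, and DMSO total array 2 with DMSO polysome array 3. No column matched an INK128 array, and the fit did not use these names. The intervals thus ignore any pairing. The sign for PMAIP1 and TIGAR turned with a single array, from -0.34 to 0.90 for PMAIP1 and from -0.19 to 0.44 for TIGAR when INK128 total array 2 or 1 was left out. In a bulk sample, fewer copies per cell and fewer cells that hold the mRNA cannot be told apart.

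**Figure D2:**
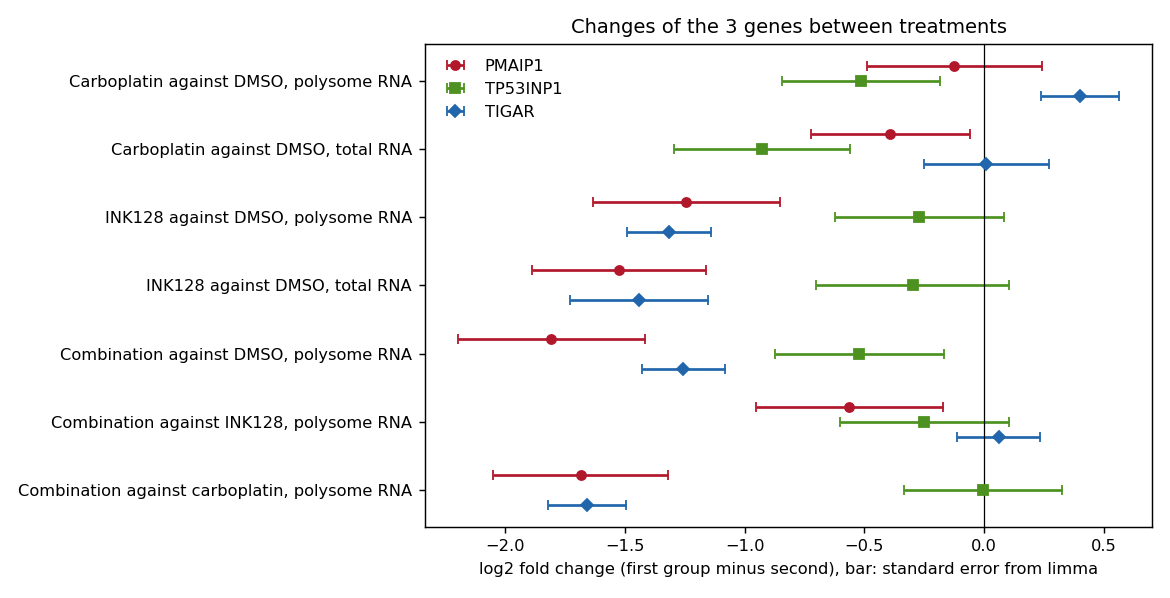
Log2 fold change (horizontal axis) of each gene in 7 comparisons (vertical axis), with bars of 1 standard error from limma. PMAIP1 and TIGAR lie between -1.81 and -1.24 in every contrast of INK128 or the combination with DMSO, and between -1.68 and -1.66 against carboplatin, while TP53INP1 is lowest with carboplatin in total RNA at -0.93.

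In the combination, carboplatin was added to cells already under INK128. PMAIP1 had polysome signals of 6.63, 6.10 and 5.36, the last of which was its lowest value on any array. All 3 lay below the lowest DMSO array, as in 16.5% of tested genes, and 13.1% passed the adjusted threshold in this contrast in either direction. The difference from DMSO was -1.81 (standard error 0.391, 3.50-fold lower), and the difference from carboplatin alone -1.68 (standard error 0.365), in a contrast in which 17.8% of genes passed and 18.9% had all combination arrays below all carboplatin arrays. TIGAR had 7.39, 6.85 and 6.96. The difference was -1.26 (standard error 0.174) from DMSO and -1.66 (standard error 0.163) from carboplatin, again with no overlap. TP53INP1 had 8.68, 8.48 and 7.77. These values overlapped those of DMSO and carboplatin, with differences of -0.52 (standard error 0.353) and -0.01 (standard error 0.330).

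Whether carboplatin changed the levels further in INK128-treated cells was tested within polysome RNA. This contrast shares the combination arrays with the one in which PMAIP1 was singled out, so its value for PMAIP1 is not independent of the choice. The combination minus INK128 was -0.56 for PMAIP1 (95% interval -1.40 to 0.27, limma adjusted p = 0.916), 0.06 for TIGAR (-0.31 to 0.43, adjusted p = 0.966) and -0.25 for TP53INP1 (-1.01 to 0.51, adjusted p = 0.934). The arrays of both groups overlapped for each gene. Of all tested genes 0 passed, and 207 had an unadjusted p under 0.05. PMAIP1 was at -0.23 without combination polysome array 3 and at -0.87 without combination polysome array 1. The effect of carboplatin with INK128 minus its effect without was -0.44 for PMAIP1 (-1.59 to 0.71), -0.34 for TIGAR (-0.85 to 0.17) and 0.26 for TP53INP1 (-0.77 to 1.30), with an adjusted p of 0.979 from limma for each. Of 7442 genes 0 passed, and 1.37% had an unadjusted p under 0.05.

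In total RNA the combination can be described only through the 2 arrays that the datasets name so. On them PMAIP1 had 7.26 and 7.58, TIGAR 6.99 and 7.03, and TP53INP1 8.73 and 8.90. PMAIP1 and TIGAR were below both DMSO total arrays, as were 30.9% of tested genes, by 1.81-fold and 2.01-fold (standard errors of the log2 differences 0.338 and 0.264), while TP53INP1 had -0.17 (standard error 0.389). On these 2 arrays PMAIP1 was above its mean with INK128 alone, by 0.67 (standard error 0.338), but INK128 total array 1 (7.37) lay between them. Set against the polysome arrays of the combination, PMAIP1 was lower in polysome RNA than in total RNA by -1.39 (standard error 0.423), TIGAR differed by 0.06 (standard error 0.220) and TP53INP1 by -0.51 (standard error 0.436). In this comparison 16.7% of tested genes were called lower, and PMAIP1 had the 137th most negative difference of 7442. The change in translation efficiency against DMSO was then -0.95 (standard error 0.598) for PMAIP1, -0.25 for TIGAR and -0.35 for TP53INP1. The study's dataset on translation efficiency in the combination also lists PMAIP1, so these values are a description and no test.

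Carboplatin alone was given at a dose that the study chose to leave these cells alive. PMAIP1 had polysome signals of 7.43 and 7.20 on the arrays without a code and of 8.41 and 7.81 on the coded arrays. All lay within the range of DMSO but the lowest, and the difference was -0.12 (standard error 0.365, 95% interval -0.91 to 0.66, limma adjusted p of 0.9999). In total RNA PMAIP1 had 7.50 and 8.16, with 7.99 on the coded array, a difference of -0.39 (standard error 0.331, interval -1.13 to 0.34, adjusted p = 0.993). In neither fraction was the mean of PMAIP1 above that of DMSO.

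TIGAR had polysome signals of 8.93 and 8.76 with carboplatin and of 8.52 and 8.68 on the coded arrays. Its mean was the highest of the 4 polysome groups, 0.40 above DMSO (standard error 0.163, interval 0.05 to 0.75), with an unadjusted p of 0.0270 and a limma adjusted p of 0.9999, and the highest DMSO array (8.61) was above 1 of the 4. In total RNA it had 7.71 and 8.49, with 7.86 on the coded array, and the difference from DMSO was 0.01 (interval -0.57 to 0.59, adjusted p of 0.9997). Of all tested genes 0 passed in polysome RNA and 0 in total RNA, against 175 and 198 at an unadjusted p under 0.05.

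TP53INP1 had the most divided carboplatin arrays. In polysome RNA the arrays without a code had 7.80 and 7.59 and the coded arrays 9.02 and 8.85. In total RNA the arrays without a code had 7.39 and 7.84 and the coded array 8.96. The uncoded arrays were below every DMSO array of their fraction, and the coded arrays were inside the DMSO range. Over all carboplatin arrays the difference from DMSO was -0.51 in polysome RNA (standard error 0.330, interval -1.22 to 0.19, limma adjusted p of 0.9999) and -0.93 in total RNA (standard error 0.368, interval -1.75 to -0.11, adjusted p = 0.993, unadjusted p = 0.0303), among the most negative values of both contrasts, 21st and 13th of 7442.

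Split by the code, a choice made after the data were seen, TP53INP1 fell by 1.14 in polysome RNA on the arrays without a code (limma adjusted p = 0.0463), with 234 genes past the threshold, and was -1.38 in total RNA (adjusted p = 0.0618, 11 genes past the threshold). With coded arrays alone it was 0.11 in polysome RNA and -0.03 in total RNA. The labelled combination total arrays that match carboplatin columns of the datasets had 7.32 and 7.55 for TP53INP1, which is at the level of the uncoded arrays. What the code stands for, and so its part in the result, was not tested.

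**Figure D3:**
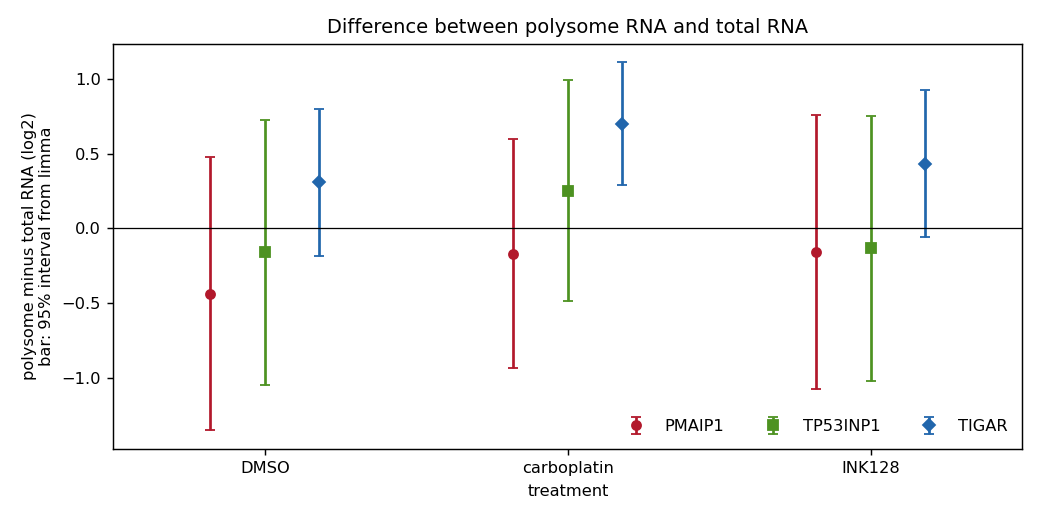
Polysome minus total RNA on the log2 scale (vertical axis) for each gene with DMSO, carboplatin and INK128, with 95% intervals from limma. Only the interval of TIGAR with carboplatin lies above 0, at 0.29 to 1.11. The intervals ignore any pairing of the fractions by lysate.

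Where an mRNA lay between the fractions was compared within each treatment, relative to all probesets since the arrays were quantile normalized. The study normalized total and polysome RNA separately for part of its work, and whether the values used here were made so was not tested. This fit, too, held no term for the lysate that both fractions share. The datasets' column names put uncoded carboplatin arrays of like number together, and the coded total array with coded polysome array 3. The intervals ignore this pairing and that of the DMSO arrays. PMAIP1 was -0.44 with DMSO, -0.16 with INK128 and -0.17 with carboplatin, and TP53INP1 -0.16, -0.13 and 0.25 in the same order. None of these 6 differences passed the threshold in limma (adjusted p from 0.567 to 0.857). TIGAR was above 0 in all 3, with 0.31 (adjusted p = 0.429), 0.43 (adjusted p = 0.198) and, with carboplatin, 0.70 (standard error 0.196, interval 0.29 to 1.11, limma adjusted p = 0.0158). In that treatment the lowest polysome array (8.52) was above the highest total RNA array (8.49). The same held with DMSO (8.15 against 8.09), as in 28.7% of tested genes in that treatment. By the test TIGAR was thus higher in polysome RNA with carboplatin, a direction in which 20.1% of tested genes passed with carboplatin. In either direction 26.2% passed with carboplatin, 4.38% with DMSO and 16.2% with INK128. In 26.9% of genes the polysome arrays were all above the total RNA arrays with carboplatin. The call was lost without carboplatin total array 2 (0.54, adjusted p = 0.0900) and without the coded carboplatin total array (0.62, adjusted p = 0.0608), and also with all 24 arrays by label or with only coded or only uncoded carboplatin arrays. The change of TIGAR's translation efficiency with carboplatin was not past the threshold (0.39, interval -0.25 to 1.03, adjusted p of 0.9995).

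The levels also gave an order of the treatments for each gene. In polysome RNA PMAIP1 ran from DMSO (mean 7.84, SD 0.787) and carboplatin (7.71, SD 0.530) to INK128 (6.59, SD 0.261) and the combination (6.03, SD 0.642), with arrays that overlapped between DMSO and carboplatin and between INK128 and the combination, and not between these pairs. TIGAR ran from carboplatin (8.72, SD 0.168) and DMSO (8.32, SD 0.250) to the combination (7.07, SD 0.282) and INK128 (7.00, SD 0.196), with the same division. TP53INP1 ran from DMSO (8.83, SD 0.418) through INK128 (8.56, SD 0.160) and carboplatin (8.32, SD 0.726) to the combination (8.31, SD 0.482), and all neighbours overlapped.

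Over the 20 arrays, with each fraction centred on its mean, PMAIP1 and TIGAR had a Pearson r of 0.783, PMAIP1 and TP53INP1 one of 0.384 and TP53INP1 and TIGAR one of -0.0788. Centred on each group instead, so that the treatments no longer count, r was 0.177, 0.662 and -0.110. Both fractions came from the same lysates and arrays of a group share a treatment, so these are descriptions. For PMAIP1 and TIGAR r was thus higher across treatments than within groups, and for PMAIP1 and TP53INP1 it was higher within groups. For PMAIP1 the tested genes with the highest r were TCF19 (0.966), CENPO, a kinetochore protein (0.960), and PGP (0.958). For TIGAR they were INTS7, a subunit of the Integrator complex (0.972), CDC25A, the phosphatase that opens the way into S phase (0.971), and BMAL1, a transcription factor of the circadian clock (0.962). For TP53INP1 they were XBP1, a factor of the unfolded protein response (0.951), PXYLP1 (0.951) and EIF5, an initiation factor (0.930). Within groups, r stayed between 0.907 and 0.937 for the genes like PMAIP1 and TP53INP1 and was 0.628 to 0.767 for those like TIGAR. Centring on groups leaves in the difference between coded and uncoded carboplatin arrays, seen above for TP53INP1 and in polysome RNA for PMAIP1. Its part in every r within groups was not tested.

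**Figure D4:**
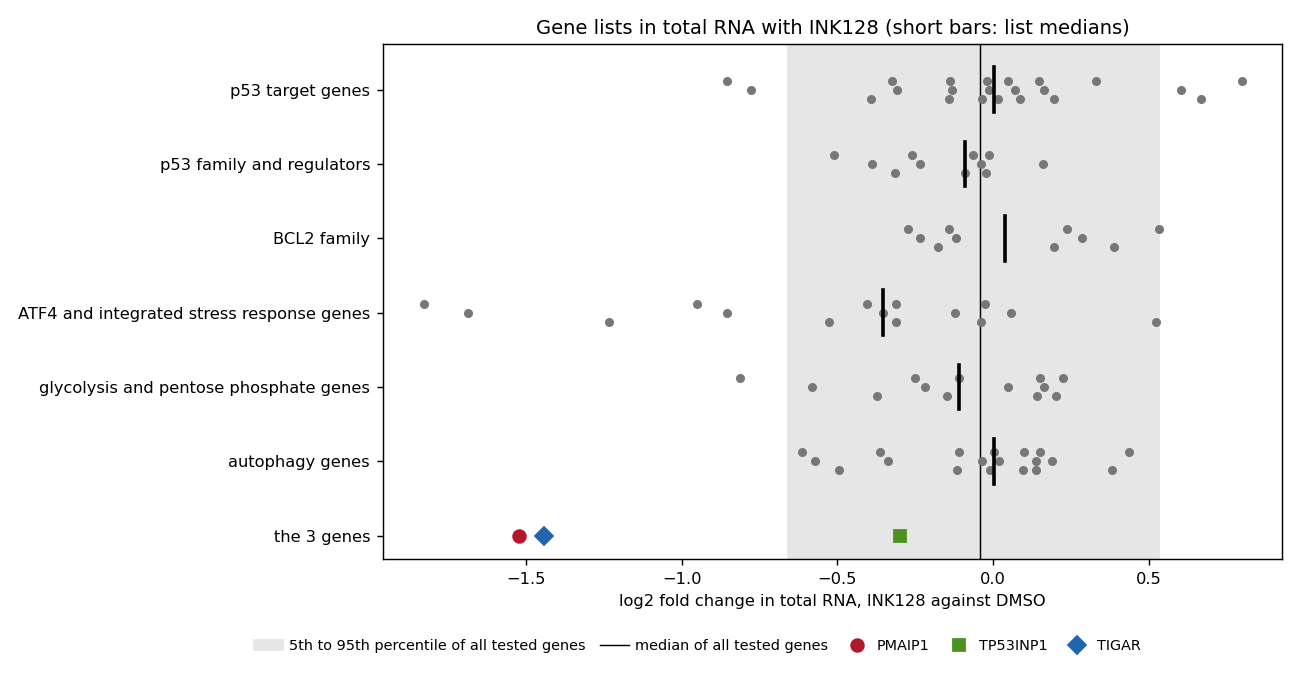
Log2 fold change in total RNA with INK128 against DMSO (horizontal axis) for the tested genes of 6 lists, without the 3 genes, and for the 3 genes themselves (vertical axis). The band runs from the 5% to the 95% quantile of all tested genes and short bars are list medians. PMAIP1 at -1.52 and TIGAR at -1.44 lie farther left than the other tested genes of the p53 target list used here, of which SESN2 is lowest at -0.85. They do not lie farther left than all genes shown, as the ATF4 list reaches -1.83. PMAIP1 was chosen by its signal in these data and TIGAR may have been, so their place beside unchosen genes is no test.

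The other p53 target genes were set beside the 3 genes. PMAIP1 was chosen by its signal in these data and TIGAR may have been, so a place beyond the unchosen targets is no test. The gene lists here and below were written with earlier results of these data known, so their counts are descriptions. Of a list of 62 targets, 34 had a symbol in the platform table and 22 besides the 3 genes were tested. In total RNA with INK128, 0 of the 22 passed the threshold, 11 had a value below 0, and their median was 0.00 against -0.04 over all tested genes. The lowest were SESN2, a sestrin that restrains mTORC1 (-0.85, standard error 0.302, limma adjusted p = 0.222), and APAF1, the scaffold of the apoptosome (-0.78, standard error 0.219, adjusted p = 0.139). The highest were GDF15, a secreted stress cytokine (0.80, standard error 0.201, adjusted p = 0.114), and PLK3, a stress-linked kinase (0.67, standard error 0.250, adjusted p = 0.240).

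In polysome RNA with INK128, 3 of these 22 targets rose and 1 fell, and their median was -0.08 against -0.02. GDF15 rose by 1.06 (standard error 0.156, adjusted p = 0.00184), DRAM1, a lysosomal protein of autophagy, by 0.68 (adjusted p = 0.0290) and SUSD6 by 0.55 (adjusted p = 0.0386), against 4.6% of all tested genes that rose. SESN2 fell by 1.03 (standard error 0.181, adjusted p = 0.00421), in a direction in which 3.59% fell. BAX, a pore-forming effector of apoptosis, was at -0.54 (adjusted p = 0.0825) and passed with the replicate number as a block (adjusted p = 0.0321). With 1 array left out at a time, GDF15 and SESN2 passed in 13 of 13 runs, DRAM1 in 8 and SUSD6 in 7. Both were lost without DMSO polysome array 1 or 3 or any INK128 polysome array, and SUSD6 also without combination polysome array 2, with an adjusted p of up to 0.116 for DRAM1 and 0.148 for SUSD6. With the combination 3 rose and 3 fell, in a contrast where 4.56% of all genes rose and 8.56% fell. GDF15 rose by 0.57, SUSD6 by 0.57 and PLK3 by 0.47, while SESN2 fell by 1.21, CCNG1, cyclin G1, fell by 0.80 (adjusted p = 0.0187) and BAX fell by 0.66 (adjusted p = 0.0311). With 1 array left out, CCNG1 was lost without DMSO polysome array 3 (adjusted p = 0.0699) or combination polysome array 3. BAX, PLK3, SUSD6 and GDF15 were each lost when the first or the third DMSO array was out, and likewise without combination polysome array 2. The first 3 of them also needed the third combination array and GDF15 the first, with an adjusted p of up to 0.0989 for BAX, 0.0937 for PLK3, 0.0994 for SUSD6 and 0.0825 for GDF15. SESN2 passed in 13 of 13 runs. With carboplatin alone 0 of the 22 passed in polysome or total RNA, with medians of 0.03 in both against 0.01 and -0.07.

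Of 11 tested regulators of p53, 1 fell in polysome RNA with INK128, the checkpoint kinase CHEK2 (-0.52, standard error 0.121, limma adjusted p = 0.0204, lost without DMSO polysome array 3 or any 1 INK128 polysome array, up to an adjusted p of 0.0937), and with the combination it fell by 0.71 (adjusted p = 0.00363). Over all tested genes 3.59% fell with INK128 and 8.56% with the combination, so 1 of 11 is near the background. The others included MDM4, an inhibitor of p53, at -0.02, and HIPK2, a kinase that acts on p53, at 0.12. In total RNA 0 of 11 passed, with USP7 lowest at -0.51 and TP73 highest at 0.16.

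The BCL2 family, to which NOXA belongs, was measured with 10 other tested genes. In INK128 total RNA 0 of them passed, against 0.161% of all tested genes, and values ran from -0.27 in BCL2L11 (BIM) to 0.53 in BMF, with BBC3 (PUMA, the other p53-linked BH3-only gene) at 0.20 and MCL1, the partner of NOXA, at -0.18. In polysome RNA with INK128 0 of 10 passed, against 8.18% of all genes (with the replicate block BAX passed, as above), and MCL1 was at 0.06 (standard error 0.154, limma adjusted p = 0.844). With the combination BMF rose by 0.54 (adjusted p = 0.0249, but up to 0.0798 without DMSO polysome array 2 or 3 or combination polysome array 2) and BAX fell as given above, 1 each of 10 against 4.56% of all genes higher and 8.56% lower, and MCL1 was at 0.00 (standard error 0.154).

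Genes of the ATF4 and integrated stress response programme, which respond to amino acid shortage and other stress, were set beside PMAIP1, which ATF4 can drive. In polysome RNA with INK128, 5 of 15 tested genes fell, against 3.59% of all genes, and 0 rose, 14 were below 0, and the median was -0.40 against -0.02 over all genes. The list was written with earlier results of these data known, so its counts are a description and no test. DDIT4, an mTORC1 inhibitor, fell by 1.95 (adjusted p = 0.00487), and the serine synthesis genes PSAT1 and PSPH fell by 1.35 and 1.31. ASNS, asparagine synthetase, fell by 1.22, and SESN2, which this list shares with the p53 targets, fell by 1.03. These 5 passed in 13 of 13 runs with 1 array left out. With the combination 7 of 15 fell, STC2 and TRIB3 besides, and 0 rose. STC2 was lost without DMSO polysome array 2 or 3 or combination polysome array 2 (adjusted p up to 0.109), and TRIB3 passed in 5 of 13 runs with 1 array left out, with an adjusted p of up to 0.0984 without DMSO polysome array 1. In total RNA with INK128 0 of 15 passed and 13 were below 0, with PSAT1 at -1.83 (adjusted p = 0.0508), DDIT4 at -1.69 (adjusted p = 0.0696) and a median of -0.36 against -0.04. ATF4 mRNA itself was at -0.32 in polysome RNA (standard error 0.213, adjusted p = 0.385) and at -0.03 in total RNA (standard error 0.222).

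Of 13 tested genes of glycolysis and the pentose phosphate pathway, on which TIGAR acts, 0 passed in either fraction with INK128, where 8.18% of all genes passed in polysome and 0.161% in total RNA. RPIA was at -0.77 in polysome RNA (adjusted p = 0.132) and passed with the replicate block (adjusted p = 0.0388). With the combination in polysome RNA 13 were below 0, with a median of -0.27 against -0.08 over all genes, and 3 of 13 fell, against 8.56% of all genes. There RPIA fell by 1.10 (adjusted p = 0.0298), RPE by 0.65 (adjusted p = 0.0406) and LDHA by 0.46 (adjusted p = 0.0495, with the replicate block 0.0561), of which LDHA passed in 1, RPE in 6 and RPIA in 9 of 13 runs with 1 array left out. Without DMSO polysome array 3 the adjusted p of LDHA was 0.157, and without combination polysome array 3 it was 0.137 for RPE and 0.107 for RPIA. RPIA and RPE interconvert pentose phosphates, and LDHA makes lactate. Of 19 autophagy genes besides TP53INP1, ATG14 rose by 0.54 (adjusted p = 0.0355) and ATG5 fell by 0.72 (adjusted p = 0.0320) in polysome RNA with INK128, 1 each of 19 against 4.6% of all genes higher and 3.59% lower, which is about the background. Each passed in 8 of 13 runs with 1 array left out, both being lost without any 1 INK128 polysome array, with an adjusted p of 0.125 for ATG5 without the second. TP53INP2, the relative of TP53INP1, was at -0.36 there (adjusted p = 0.106), and 0 of 19 passed in total RNA. With the combination in polysome RNA ATG3 fell by 0.45 (limma adjusted p = 0.031), 1 of 19 against 8.56% of all genes lower. It passed in 8 of 13 runs with 1 array left out.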

How the data were processed

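The values used are the deposited log2 signals of 53617 probesets on 24 arrays, which the authors made with RMA background correction and quantile normalization in Expression Console 1.4.1. The values had 0 missing entries and 0 columns were left unused. The authors' own fold changes were not used. Of the probesets 16098 carry 1 symbol, and the probeset with the highest mean stood for a gene. Differences between groups came from limma (version 3.58.1, with R 4.3.3 and data.table version 1.17.8), in 1 fit for polysome RNA, 1 for total RNA and 1 for both, with Benjamini-Hochberg adjustment over 7442 genes and a threshold of 0.05. The fits were checked first on simulated arrays with known changes. The genes, the lists and the tests were chosen with earlier results of these data known. Genes were named from those that passed the threshold with INK128 or the combination against DMSO, were the 2 highest or lowest of a list with INK128 in total RNA, or correlated best with 1 of the 3 genes. Not all of the highest and lowest are named, and calls of list genes in other contrasts, such as the combination against carboplatin, are not given. MCL1 and ATF4 were named wherever measured, and MDM4, HIPK2, BBC3, TP53INP2 and the epithelial markers besides MSLN and KRT18 were chosen after their values were seen. Replicate numbers were taken to pair DMSO and INK128 polysome arrays, as all 3 same-numbered pairs deviated together (r 0.163 to 0.363). The main fits held no term for the replicate number, so the p-values given for this contrast ignore that pairing unless the block is named. Alternatives were all 24 arrays by label, the datasets' conditions, no filter, median centring, quantile normalization within fractions, fits of the compared groups only, array weights, a replicate block, arrays with or without a code, and each array left out.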

Additional observations from a re-analysis of the deposited data

How the results depend on the processing

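The settings were changed one at a time, and for the 3 genes 912 values kept their direction and their side of the threshold (or, where untested, stayed within the spread), 43 changed sign, 5 lost and 5 gained significance and 4 moved. In no setting did PMAIP1 or TIGAR with INK128 or the combination against DMSO change direction. The cause of the following changes was not tested. With all 24 arrays by label, TIGAR was -1.32 for the combination against carboplatin in polysome RNA, -0.25 for carboplatin in total RNA, and 0.62 (adjusted p = 0.185) for polysome minus total RNA with carboplatin. Genes called were then 301 with INK128 and 554 with the combination in polysome RNA, 0 with INK128 in total RNA, and for polysome minus total RNA 2 with DMSO, 0 with INK128 and 0 with carboplatin. With the datasets' conditions TP53INP1 was 0.19 for the combination against carboplatin, PMAIP1 (-1.52, adjusted p = 0.0391) and TIGAR (-1.44, adjusted p = 0.0207) passed with INK128 in total RNA, and 209 genes were called there and 707 for polysome minus total RNA with DMSO. Quantile normalization within fractions gave TP53INP1 0.0761 for the combination against carboplatin. Without the filter 19 genes, and with median centring 20, were called with INK128 in total RNA. In fits of only the groups compared, 44 genes were called with the combination against DMSO, 752 against carboplatin, 0 with INK128 in total RNA and 0 for polysome minus total RNA with DMSO.

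Array weights by the gene-by-gene method called 4130 genes with INK128 and 3010 with the combination in polysome RNA, and 4233 with DMSO and 591 with INK128 for polysome minus total RNA. Under them TIGAR was -1.58 with INK128 and -1.56 with the combination in polysome RNA, -0.0397 with carboplatin in total RNA, -0.14 in translation efficiency with INK128 and 0.55 (adjusted p = 0.00143) for polysome minus total RNA with DMSO, where PMAIP1 was -0.75 (adjusted p = 0.00253). PMAIP1 was 0.11 with carboplatin in polysome RNA, and TP53INP1 0.28 for the combination against carboplatin. Carboplatin arrays without a code gave TP53INP1 -1.14 with carboplatin in polysome RNA (adjusted p = 0.0463) and 0.61 for the combination against carboplatin, PMAIP1 -0.0768 in translation efficiency with carboplatin, and TIGAR 0.74 (adjusted p = 0.0741) for polysome minus total RNA. They gave 234 genes with carboplatin in polysome RNA, 11 in total RNA, 40 for the effect of carboplatin with INK128 minus without, and 722 for polysome minus total RNA. Coded arrays alone, a setting added after the data were seen, gave TP53INP1 -0.63 for the combination against carboplatin, 0.11 with carboplatin in polysome RNA, -0.36 for the effect of carboplatin with INK128 minus without and -0.0234 for polysome minus total RNA. PMAIP1 was then 0.27 with carboplatin in polysome RNA and 0.12 for polysome minus total RNA, and TIGAR -0.15 with carboplatin in total RNA and 0.74 (adjusted p = 0.230) for polysome minus total RNA, with 786 genes called for the combination against carboplatin and 2 for polysome minus total RNA.

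Same-numbered arrays deviated together (r over 0.1) in 18 of 41 pairs, against 20 of 82 pairs of unlike number. Within a fraction these were 11 of 19 and 9 of 38. Of the pairs of groups with 3 shared numbers, all 3 pairs were over 0.1 for DMSO and INK128 polysome arrays (0.163 to 0.363), and 2 of 3 for the combination with DMSO (lowest -0.0347) and with INK128 (lowest 0.0871), so the numbers are taken to pair the first comparison and are not shown to pair the others. The ground for that pairing is weak, as DMSO polysome array 2 and INK128 polysome array 3, of unlike number, had r 0.178. For INK128 against DMSO in polysome RNA 700 genes were called with the block against 609 in the main fit, which holds none. The differences of the 3 genes were unchanged. With the replicate block PMAIP1 was 0.15 with carboplatin in polysome RNA and 0.0603 for polysome minus total RNA with carboplatin, TIGAR -0.23 with carboplatin in total RNA and TP53INP1 0.0004955 for polysome minus total RNA with INK128. The block left 0 genes called with INK128 in total RNA, and 95 with DMSO and 736 with INK128 for polysome minus total RNA. As same-numbered polysome and total pairs, a replicate block gave PMAIP1 -0.23 in translation efficiency with carboplatin. That setting joined DMSO total array 2 with DMSO polysome array 2, while the datasets' column names put it with DMSO polysome array 3. Among the list genes with INK128 or the combination against DMSO, the block added BAX, RPIA and EPCAM with INK128 and BAK1 and ATG5 with the combination, and dropped LDHA with the combination. It changed no call of the 3 genes.

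With each array left out in turn, carboplatin against DMSO was -0.42 to 0.32 in polysome RNA for PMAIP1 and -0.23 to 0.16 in total RNA for TIGAR. The combination against INK128 was -0.10 to 0.17 for TIGAR and -0.44 to 0.0219 for TP53INP1, and the combination against carboplatin -0.25 to 0.27 for TP53INP1. Translation efficiency with INK128 was -0.34 to 0.90 for PMAIP1, -0.19 to 0.44 for TIGAR and -0.15 to 0.26 for TP53INP1, and with carboplatin -0.0240 to 0.72 for PMAIP1. Polysome minus total RNA was -0.78 to 0.47 with INK128 and -0.40 to 0.00225 with carboplatin for PMAIP1, -0.39 to 0.0153 with DMSO and -0.0831 to 0.70 with carboplatin for TP53INP1, and 0.54 to 0.93 with carboplatin for TIGAR (adjusted p from 0.00734 to 0.0900). Genes called were 168 (without DMSO polysome array 3) to 955 (without DMSO polysome array 2) with INK128, 219 (without DMSO polysome array 3) to 1392 with the combination and 807 (without combination polysome array 2) to 1859 for the combination against carboplatin in polysome RNA. They were 0 to 32 (without INK128 total array 2) with INK128 and 0 to 11 (without the coded carboplatin array) with carboplatin in total RNA, and 1 (without DMSO total array 1) to 1545 (without DMSO polysome array 1) with DMSO, 3 (without INK128 total array 2) to 1746 with INK128 and 1012 (without carboplatin total array 2) to 2340 with carboplatin for polysome minus total RNA. Of the 22 other p53 targets, 1 to 3 rose and 1 to 3 fell in polysome RNA with INK128 in these runs, and of the 15 ATF4 genes 5 to 7 fell. Over the other settings 2 to 5 p53 targets rose and 0 to 9 fell, and 4 to 11 ATF4 genes fell.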
